A study of Mus musculus with 6 samples.

Results

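Potassium channel subunits were examined in right ventricular (RV) tissue of neonatal mice after pulmonary artery banding (PAB), and were taken as every gene of the deposited expression table whose name begins with Kcn. The table lists 617 genes, of which 7 carry such a name: Kcnh2, Kcnd2, Kcnj3, Kcnj5, Kcnj4, Kcnj15 and Kcne3. PAB narrows the pulmonary artery with a tied thread and loads the RV with pressure. Sham surgery left out the band. Wild-type C57/BL6J pups of both groups were operated on at postnatal day 1, RV tissue was taken at postnatal day 7, and bulk RNA-seq was run on 3 libraries of each group. The labels give organism and strain as mouse, although their text on extraction names a rat. The neonates were male or female, and the labels do not say whether a library is a single RV or a pool. Each p-value therefore sets a difference against the spread between these libraries only. The authors scaled the read counts of each library by its own size factor, and the scaled values are called normalized reads here. The smallest step between values was 0.935 to 1.07 normalized reads, depending on the library, and is taken here as the worth of a read, and the total depth was not analysed here because the table holds a selection of genes.

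Potassium channels let potassium leave or enter a cardiomyocyte and so set its resting potential and the repolarization that ends each action potential. Voltage-gated subunits open on depolarization, inward rectifiers hold the membrane near the potassium equilibrium potential, and a branch of the inward rectifiers opens when G proteins are released by receptors such as the muscarinic receptor of the vagus nerve. Accessory subunits form no pore and change the gating of the channels they join.

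PAB RVs held less RNA of 4 pore-forming subunits and more RNA of the other 3 genes. Both voltage-gated pore subunits, Kcnh2 and Kcnd2, and both G protein-gated subunits, Kcnj3 and Kcnj5, were lower, while the inward rectifiers Kcnj4 and Kcnj15 and the accessory subunit Kcne3 were higher. All 7 had an adjusted p-value under 0.05 in limma on log2(value + 1), 3 higher and 4 lower in PAB, and Kcnj5 lost its call under median-ratio scaling, described below. Among all listed genes 100% passed, 47.0% higher and 53.0% lower. The sham and PAB values did not overlap in any of the 7 genes, nor in 97.1% of all listed genes. The listed genes had been selected for a difference between these same 6 libraries, so nothing is read from these counts, and each p-value describes a difference against the spread and is no independent test. In bulk tissue, fewer cells of a type and less RNA per cell cannot be told apart.

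**Figure D1:**
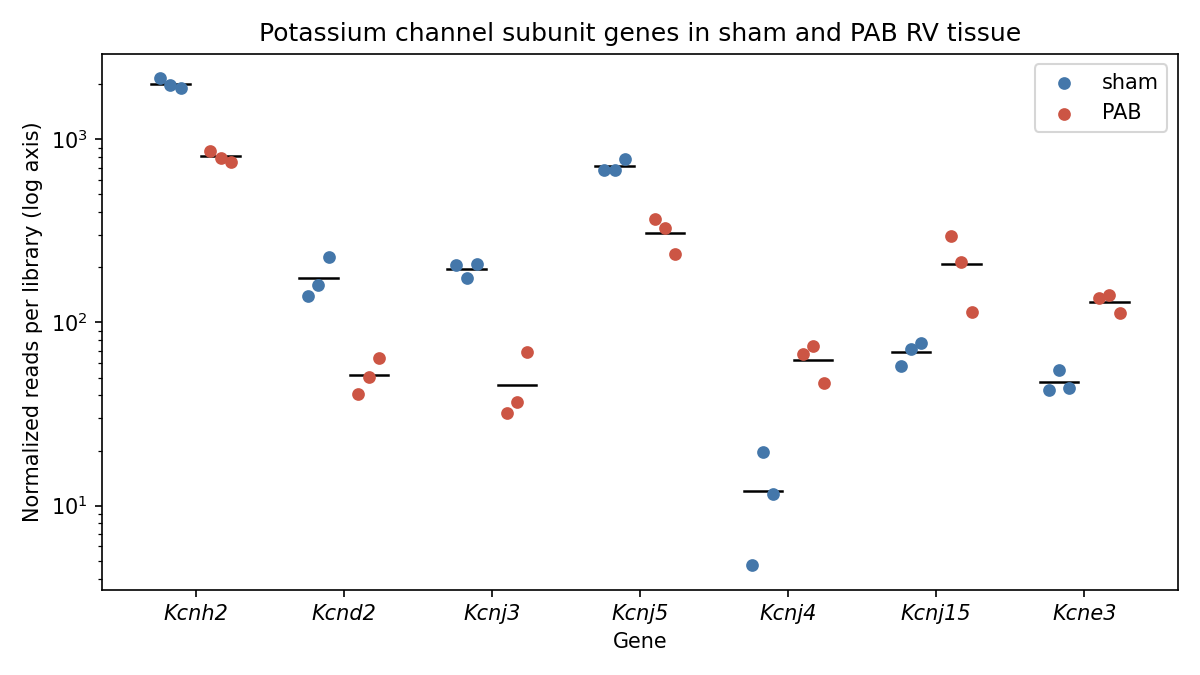
Normalized reads of the 7 potassium channel subunit genes (log axis) in each of 3 sham and 3 PAB libraries, with the group mean as a bar. In each gene the sham points and the PAB points lie apart, with PAB lower in the 4 genes on the left and higher in the 3 on the right.

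Kcnh2 encodes the pore of the rapid delayed rectifier, a current of late repolarization, and lies on the minus strand (chr5:24319589-24351604, build GRCm38). It had 2149.7, 1975 and 1911 normalized reads in sham replicates 1 to 3 and 868, 794 and 753 in PAB replicates 1 to 3. The libraries of each group lay close together, and the lowest sham value was 1043 normalized reads above the highest PAB value. The mean fell from 2012 ± 124 to 805 ± 58.2 (SD, n = 3 each), a log2 fold change of -1.32 with a standard error of 0.21 (limma, adjusted p = 0.000682). The annotation gives 2 protein-coding transcripts of Kcnh2, with 15 and 11 coding exons, and counts per gene do not separate them.

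Kcnd2, on the plus strand (chr6:21215503-21729805), encodes a pore subunit of the fast transient outward current, which shapes early repolarization in the mouse ventricle. Its values were 140.0, 161 and 227 normalized reads in sham replicates 1 to 3 and 40.5, 50.6 and 63.6 in PAB replicates 1 to 3. Sham replicate 3 stood above the other sham libraries, and every PAB value lay below every sham value. The mean fell from 176 ± 45.2 to 51.5 ± 11.6 (SD, n = 3 each), a log2 fold change of -1.74 with a standard error of 0.30 (limma, adjusted p = 0.000927).

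Kcnj3 and Kcnj5 encode the subunits that join into the G protein-gated channel of the heart, which carries the acetylcholine-activated current and is best known from atrial and nodal cells. Kcnj3 (plus strand, chr2:55435970-55598145) had 205, 175 and 209 normalized reads in sham replicates 1 to 3 and 32.0, 36.7 and 68.5 in PAB replicates 1 to 3. PAB replicate 3 held the highest PAB value and still lay far below the sham libraries. The mean fell from 196 ± 18.6 to 45.7 ± 19.9 (SD, n = 3 each), a log2 fold change of -2.15 with a standard error of 0.33 (limma, adjusted p = 0.000622), the largest decrease among the 7 genes. Exons of Kcnj3 overlap those of Gm26794, a noncoding gene on the opposite strand that is not listed, over 1621 bases. The sources used here do not say that reads were counted by strand, so the reads of both genes cannot be told apart there and the level of Kcnj3 is uncertain.

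Kcnj5 (minus strand, chr9:32314707-32344350) had 677, 675 and 782 normalized reads in sham replicates 1 to 3 and 365, 327 and 235 in PAB replicates 1 to 3. Here PAB replicate 3 was the lowest PAB library, the reverse of its place for Kcnj3. The mean fell from 712 ± 61.3 to 309 ± 66.8 (SD, n = 3 each), a log2 fold change of -1.22 with a standard error of 0.24 (limma, adjusted p = 0.00170), which was the smallest of the 4 decreases. It was not called when the libraries were scaled by their median ratio over the table (limma, adjusted p = 0.0619). Per kilobase of gene length, Kcnj5 exceeded Kcnj3 by a ratio of 3.67, 4.30 and 4.17 in sham replicates 1 to 3 and of 12.7, 9.93 and 3.82 in PAB replicates 1 to 3. PAB replicates 1 and 2 therefore lay above the sham range for this ratio and PAB replicate 3 lay within it, so the groups overlapped.

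Kcnj4, a strong inward rectifier (minus strand, chr15:79483714-79505241), had the lowest values of the family in sham. It had 4.73, 19.6 and 11.5 normalized reads in sham replicates 1 to 3 and 67.1, 74.4 and 46.7 in PAB replicates 1 to 3. The sham values amount to few such steps each and scatter widely, yet each PAB library lay above all of them. The mean rose from 12.0 ± 7.46 to 62.7 ± 14.4 (SD, n = 3 each), a log2 fold change of 2.46 with a standard error of 0.50 (limma, adjusted p = 0.00180). The pseudocount of 1 understates a change from so low a level. The size also depended on single sham libraries, with a log2 fold change of 1.96 without sham replicate 1 and 2.88 without sham replicate 2.

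Kcnj15 (plus strand, chr16:95257558-95300260) is an inward rectifier known chiefly from epithelia such as the kidney tubule. It had 57.7, 72.0 and 77.6 normalized reads in sham replicates 1 to 3 and 295, 214 and 114 in PAB replicates 1 to 3. PAB replicate 1 was the highest and PAB replicate 3 the lowest, with only 36.6 normalized reads between that library and the highest sham library. The mean rose from 69.1 ± 10.3 to 208 ± 90.6 (SD, n = 3 each), a log2 fold change of 1.48 with a standard error of 0.35 (limma, adjusted p = 0.00346), the largest adjusted p-value of the 7. Its exons share 333 bases with Gm49643 on the opposite strand, where reads cannot be told apart either.

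Kcne3 (plus strand, chr7:100176502-100184869) encodes a single-pass accessory subunit that alters the gating of voltage-gated potassium channels. It had 42.6, 55.2 and 44.0 normalized reads in sham replicates 1 to 3 and 135, 141 and 113 in PAB replicates 1 to 3. The PAB libraries lay close together and the gap to the highest sham library was 58.1 normalized reads. The mean rose from 47.3 ± 6.89 to 129.8 ± 14.6 (SD, n = 3 each), a log2 fold change of 1.44 with a standard error of 0.28 (limma, adjusted p = 0.00144).

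Between genes, levels were compared as normalized reads per kilobase of the gene length given in the table. In sham the mean level was 415 for Kcnh2 and 152 for Kcnj5, then 37.6 for Kcnj3, 34.1 for Kcnd2, 26.6 for Kcne3, 10.9 for Kcnj15 and 5.56 for Kcnj4. In this order the ranges over the libraries overlapped between Kcnj3 and Kcnd2 and between Kcnd2 and Kcne3, and were apart for the other neighbours. In PAB, Kcnh2 again came first at 166 per kilobase, followed by Kcne3 at 72.9 and Kcnj5 at 66.0, whose ranges overlapped. Kcnj15 at 32.9 and Kcnj4 at 29.1 overlapped with each other and lay above Kcnd2 at 10.0 and Kcnj3 at 8.77, which also overlapped. Kcne3 thus moved from rank 5 to rank 2 and Kcnj3 from rank 3 to rank 7.

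**Figure D2:**
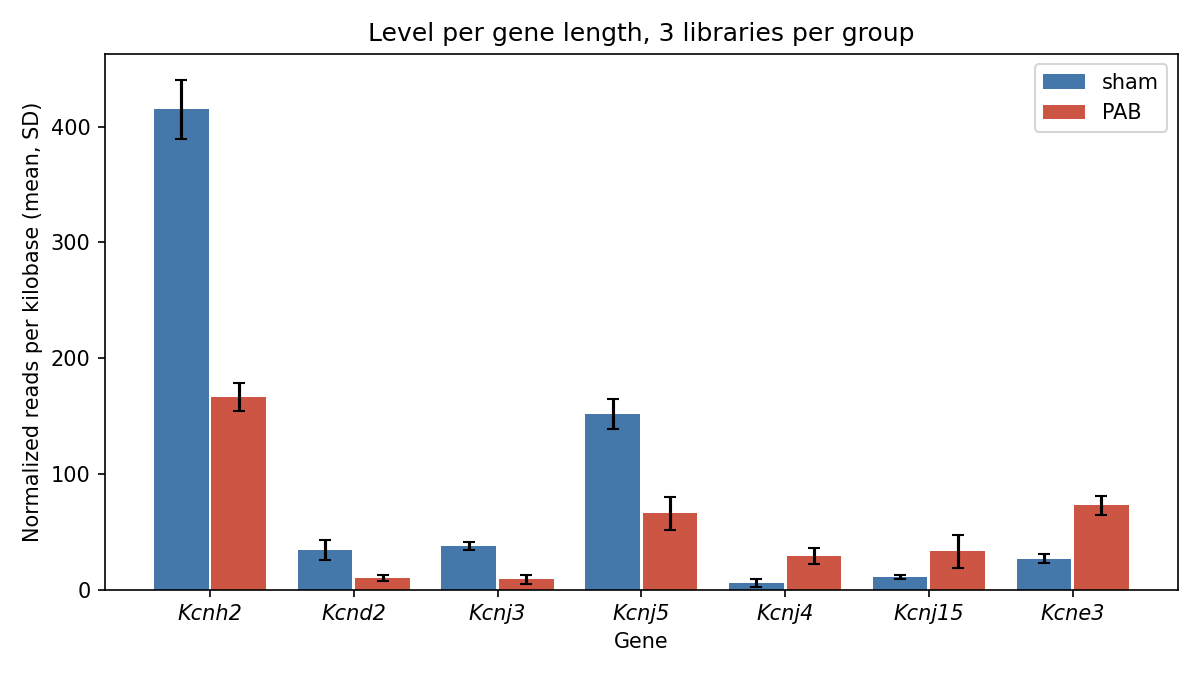
Level of each gene per kilobase of gene length as the mean of 3 libraries, with the SD as error bars, in sham and PAB. Kcnh2 is the highest in both groups, at 415 in sham and 166 in PAB.

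The 4 lower genes together summed to 655, 617 and 645 normalized reads per kilobase in sham replicates 1 to 3 and to 271, 251 and 231 in PAB replicates 1 to 3. The 3 higher genes summed to 35.3, 51.5 and 42.4 in sham and to 154, 148 and 103 in PAB. The sum over the 7 genes was 682 ± 12.1 in sham and 386 ± 46.5 in PAB (SD, n = 3 each), and this difference depended on the scaling. With median-ratio scaling over the table, chosen for these sums after seeing the data, the sums were 529.5, 500.05 and 589 in sham replicates 1 to 3 and 534, 495 and 363 in PAB replicates 1 to 3, so the groups overlapped. The sum of the 4 lower genes and the sum of the 3 higher genes did not overlap between groups under either scaling. This had to be so, because genes were sorted into these sums by direction and each of the 7 was apart under both scalings. Kcnh2 made up 60.9% ± 3.48 of the sum over the 7 genes in sham and 43.3% ± 2.81 in PAB. The 3 higher genes made up 6.33% ± 1.31 in sham and 34.7% ± 3.33 in PAB (SD, n = 3 each), a rise that also had to follow from the sorting by direction. These sums cover listed genes only, and other potassium channel genes were not analysed here.

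The PAB libraries did not differ from sham to the same degree. On the log2(value + 1) scale PAB replicate 1 lay farthest from the sham mean in 444 of the 617 listed genes, or 72.0%. Among the potassium channel genes it was farthest in 3 of 7 (Kcnj3, Kcnd2 and Kcnj15). PAB replicate 3 was the nearest to sham in 416 of the 617 listed genes, or 67.4%, and in 5 of the 7. For Kcnh2 and Kcnj5 PAB replicate 1 was instead the nearest to sham, which held for 48 of the 327 lower genes of the table. Without PAB replicate 1 the log2 fold change was -1.38 for Kcnh2 and -1.35 for Kcnj5, and for Kcnj15 it was 1.18. Without that library all 7 genes were called, as were 602 of the 617 listed genes.

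Scaling decided the call of 1 of the genes. When the libraries were scaled by their median ratio over the table instead, log2 values of PAB moved up by 0.59 relative to sham. Such scaling assumes that most genes do not change, whereas every listed gene had been selected for a difference. The shift cannot be told apart from that selection, so calls lost under this scaling are given as values only. The split of the whole table went from 290 higher and 327 lower genes to 290 and 188. All 7 potassium channel genes kept their direction, which this shift could not have turned, since it was smaller than each of their log2 fold changes. Kcnj5 was no longer called, with a log2 value of -0.63 and an adjusted p of 0.0619 in limma (against 0.000145 to 0.00992 over the other alternatives), and Kcnh2 moved to -0.73.

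Other ion channels and transporters were sought by fixed families of gene names, and 10 listed genes are described here. Of these, 9 fell and 1 rose (limma, adjusted p-value under 0.05), beside 53.0% lower and 47.0% higher among all listed genes. The 10 genes are not all the listed members, and some act mainly outside cardiac muscle. Other channel and transporter families were not part of the list, so nothing is read from the count of the 10 genes. The pacemaker channel gene Hcn4 had 53.0, 72.0 and 74.5 normalized reads in sham replicates 1 to 3 and 8.52, 21.8 and 11.9 in PAB replicates 1 to 3, or -2.24 as a log2 fold change (limma, adjusted p = 0.00122). Its relative Hcn2 fell from 1030.5 ± 61.1 to 459.8 ± 24.9 (SD, n = 3 each). Cacna1g, a T-type calcium channel of pacemaker and immature cardiomyocytes, fell from 1048 ± 125 to 358 ± 39.3 (SD, n = 3 each). Lower values were also listed for the sodium channels Scn4a and Scn10a, the calcium channel subunits Cacna1a and Cacng6, the gap junction gene Gja3 and Pln, the inhibitor of the calcium pump of the sarcoplasmic reticulum. Pln and Cacna1a lost their calls under median-ratio scaling, with adjusted p = 0.119 and 0.155 in limma. The gene that rose was Ryr3, a calcium release channel, with 3.78, 8.42 and 4.20 normalized reads in sham replicates 1 to 3 and 147, 55.5 and 48.7 in PAB replicates 1 to 3. Exons of Pln, Ryr3 and Cacna1a overlap genes on the opposite strand over 1644, 916 and 435 bases, so their levels are uncertain in the same way as that of Kcnj3.

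**Figure D3:**
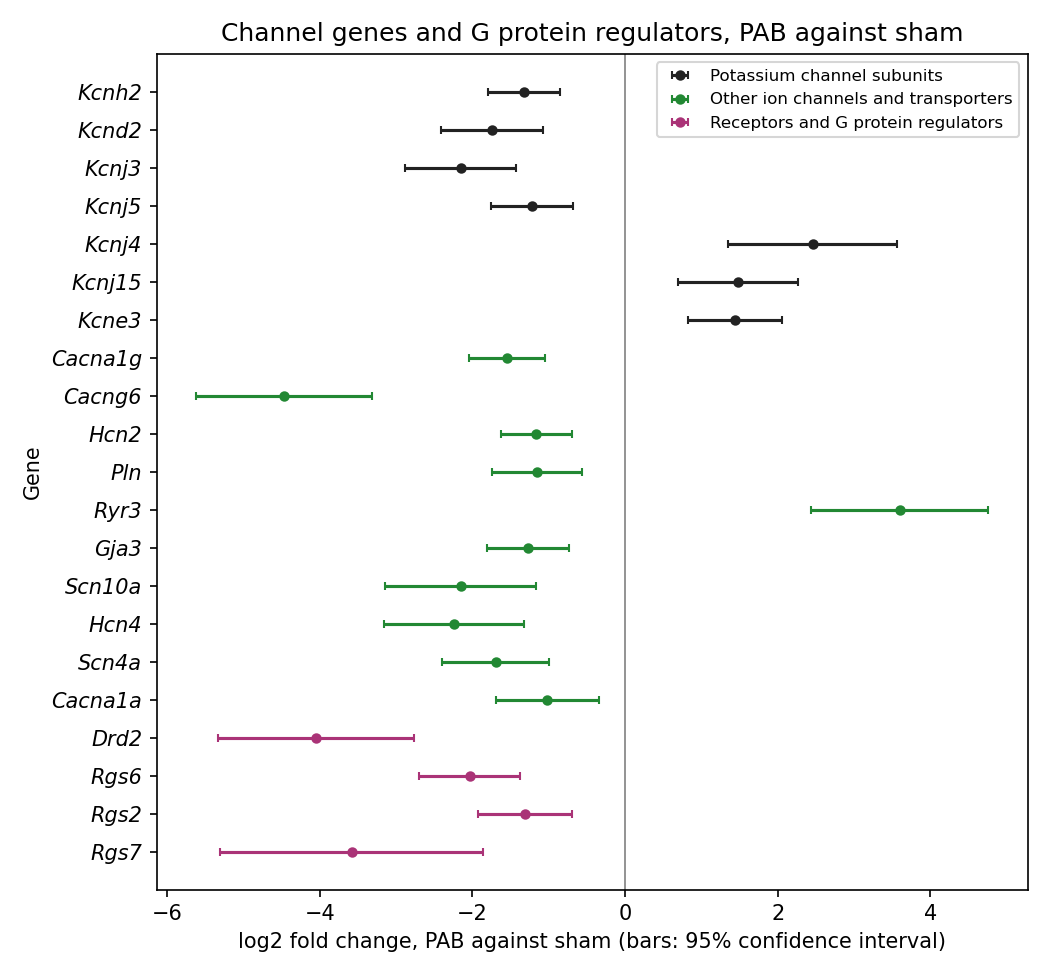
Log2 fold change of PAB against sham (limma on log2(value + 1), 3 libraries per group, bars for the 95% confidence interval) for the 7 potassium channel genes, the 10 other ion channel and transporter genes and the 4 receptor and G protein regulator genes. The intervals lie to the left of 0 for the genes that were lower in PAB, and to the right for Kcnj4, Kcnj15, Kcne3 and Ryr3. Median-ratio scaling shifts PAB by 0.59 on this scale, less than the change of any gene shown, so it could turn no direction.

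Receptors and regulators of the G proteins that act on Kcnj3 and Kcnj5 channels were sought by fixed gene families, of which 4 genes were listed. All 4 fell, beside 53.0% of all listed genes, and other receptors that couple to G proteins were not part of the list. Rgs6, which speeds the closing of these channels by ending the G protein signal, had 318, 331 and 280.0 normalized reads in sham replicates 1 to 3 and 60.7, 60.5 and 113 in PAB replicates 1 to 3. PAB replicate 3 was the nearest to sham, as in 200 of the 327 lower genes, and the log2 fold change was -2.03 (limma, adjusted p = 0.000539). Its relative Rgs7 was low throughout, at 34.0, 56.1 and 16.8 in sham replicates 1 to 3 and 0, 1.98 and 5.96 in PAB replicates 1 to 3. Its log2 fold change of -3.58 was -2.85 without PAB replicate 1 and -4.25 without PAB replicate 3. With a pseudocount of 0.1 in place of 1 it was -4.88, so the size of this decrease is uncertain. Drd2, a dopamine receptor that couples to inhibitory G proteins, had 92.7, 164 and 87.0 normalized reads in sham replicates 1 to 3 and 5.33, 1.98 and 14.9 in PAB replicates 1 to 3. For Drd2 the log2 fold change of -4.05 was -4.67 without PAB replicate 3 and -3.47 without PAB replicate 2. Rgs2, best known for acting on another class of G proteins, fell from 976 ± 288 to 389 ± 84.7 and lost its call under median-ratio scaling (limma, adjusted p = 0.0538). Exons of Rgs6 share 77 bases with a gene on the opposite strand. Among 26 partners and regulators of potassium channels only the transcription factor gene Tbx5 was listed, with 151, 166 and 261 normalized reads in sham replicates 1 to 3 and 101, 62.5 and 70.5 in PAB replicates 1 to 3; its call was also lost under that scaling (limma, adjusted p = 0.0820).

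For each potassium channel gene the listed gene with the most similar pattern was sought, as the smallest root-mean-square distance between log2(value + 1) profiles centred on their means over the 6 libraries. The closest pair was Kcnj5 and Selenbp1, a selenium-binding protein gene, at a distance of 0.070, and Kcnh2 was closest to the fatty acid transporter gene Slc27a1 at 0.089. Selenbp1 shares a stretch of 1712 bases at 98.5% identity with Selenbp2, so its value is uncertain, and Selenbp1 lost its call under median-ratio scaling (limma, adjusted p = 0.0561). Kcnj3 was closest to Plppr1 at 0.161, and Kcnd2 to 4430402I18Rik at 0.193, a transcript that overlaps Slc1a1 on the opposite strand over 2631 bases. Among the higher genes, Kcnj15 was closest to AW011738 at 0.131, Kcne3 to Crispld2 at 0.149 and Kcnj4 to Ap1s3 at 0.360. The last distance was the largest, at the low values of both genes in sham. Plppr1 shares 597 bases at 98.7% identity with Gm12451, Ap1s3 shares stretches of up to 464 bases with other genes (97.6% identity with Gm8532), and Slc27a1 stretches of up to 167 bases (95.2% identity with Slc3a2), so their values are uncertain too.

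Markers of cell types were set beside the channel genes, since several of these channels differ in level between atrial, nodal and ventricular cells. Of 12 atrial markers 3 were listed, Nppa higher and Stard10 and Tbx5 lower in PAB. Their summed level was 716, 811 and 765 normalized reads in sham replicates 1 to 3 and 22119, 9383 and 5199 in PAB replicates 1 to 3, nearly all from Nppa in PAB, a gene that is also a marker of hypertrophy. Stard10 alone fell from 363 ± 77.6 to 96.5 ± 39.7 (SD, n = 3 each), and the defining atrial genes Myl7, Myl4 and Sln were not analysed here. Of 12 conduction system markers 2 were listed, Hcn4 and Cacna1g, which are the channel genes above, with a sum of 1245, 1060.5 and 1039 in sham replicates 1 to 3 and 409, 373 and 335 in PAB replicates 1 to 3. Cacna1g was the more abundant, and Tbx3, Shox2 and Isl1 were not analysed here. None of 10 ventricular, 8 skeletal muscle or 6 erythroid markers was listed, so the tissue label was not checked against ventricular genes.

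Of each other list 1 marker was listed, and the markers named after "without" were not analysed here. The endothelial gene Vwf (1 of 9 markers, without Pecam1 and Cdh5) had 1488, 1334 and 1283 normalized reads in sham replicates 1 to 3 and 4792, 3251 and 1637 in PAB replicates 1 to 3. The smooth muscle gene Cnn1 (1 of 9, without Acta2 and Myh11) had 122, 106 and 122 in sham and 681, 289 and 372 in PAB, and the epicardial gene Krt8 (1 of 6, without Wt1) had 151, 148 and 146 in sham and 372, 334 and 312 in PAB. Krt8 shares a stretch of 941 bases at 98.6% identity with its pseudogene, Vwf shares stretches of up to 186 bases with other genes (95.2% identity with Slc7a14), and exons of Nppa overlap those of the antisense gene Gm13054 over 532 bases. Lower in PAB were the fibroblast gene Dpt (1 of 10, without Pdgfra and Tcf21), at 4720.3, 4759 and 4649 in sham and 1487, 2281 and 2511 in PAB, which lost its call under median-ratio scaling (limma, adjusted p = 0.0572), and the macrophage gene C1qa (1 of 9, without Adgre1 and Ptprc), at 666, 700.4 and 643 in sham and 312, 271 and 347 in PAB. Dbh, an enzyme gene of sympathetic neurons (1 of 8, without Th), had 122, 151 and 99.6 in sham and 8.52, 5.95 and 13.9 in PAB. The part of these cell types in the potassium channel results was not tested. Nppb, the other marker of hypertrophy, had 2802, 2235 and 2318 normalized reads in sham replicates 1 to 3 and 17262, 11469 and 11519 in PAB replicates 1 to 3.

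Promoter sequences of the 7 genes were taken from RefSeq (build GRCm38.p6), which gives 8 windows of 250 bases before a start site, 2 of them for Kcne3. The start site of the only Kcnh2 window lies 22013 bases inside the gene, so the start of its longer transcript was not searched. Their GC content ran from 46.8% in a Kcne3 window to 77.2% in Kcnj4, against a median of 52.4% over 32851 windows. The motif AGATAA, which zinc finger factors of the heart bind, was searched on both strands. So were ACANNTGT, bound by Iroquois factors, TGACGTCA, the cAMP response element, and the E-box CACGTG. None of the 8 windows held a match, and 9.99%, 6.31%, 1.55% and 6.02% of all windows did. This says only that these letters are not in these windows. The stretches below lie outside the annotated exons and are shown for 2 genes that fell, Kcnd2 (chr6:21215096-21215345, plus strand) and Kcnj5 (chr9:32344381-32344594, minus strand), and 1 that rose, Kcnj15 (chr16:95257308-95257557, plus strand), all in lower case because no motif was found:
Kcnd2: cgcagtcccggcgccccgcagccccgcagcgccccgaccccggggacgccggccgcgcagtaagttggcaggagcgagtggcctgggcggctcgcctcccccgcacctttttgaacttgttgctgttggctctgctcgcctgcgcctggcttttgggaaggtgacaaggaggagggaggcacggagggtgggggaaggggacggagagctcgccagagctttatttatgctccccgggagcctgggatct
Kcnj5: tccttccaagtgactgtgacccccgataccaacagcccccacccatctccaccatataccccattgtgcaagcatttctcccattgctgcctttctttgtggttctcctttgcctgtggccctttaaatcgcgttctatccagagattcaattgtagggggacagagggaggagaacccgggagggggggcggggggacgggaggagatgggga
Kcnj15: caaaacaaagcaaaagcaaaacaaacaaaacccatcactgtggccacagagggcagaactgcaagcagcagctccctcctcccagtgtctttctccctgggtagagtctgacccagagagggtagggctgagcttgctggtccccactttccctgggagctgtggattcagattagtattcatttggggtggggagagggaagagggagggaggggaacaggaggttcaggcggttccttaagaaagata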

How the data were processed

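RNA from RV tissue was sequenced in 6 libraries, 3 sham and 3 PAB, with groups and replicate numbers taken from the sample labels. The submitters' processing notes name HISAT2 2.0.5, StringTie 1.3.3b, featureCounts 1.5.0-p3, GATK 3.7 and build mm10, and the authors compared the groups with DESeq2. The deposited values are called FPKM by the authors, but they are a signal of another kind, counts scaled by the size factor of each library. In every library 100% of the 617 values were whole multiples of a fixed step, to a tolerance of 0.01 steps. The table also holds the authors' group means, log2 fold changes and p-values, which were not used.

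Values were fitted on the scale log2(value + 1) in limma 3.58.1 under R 4.3.3, by lmFit and eBayes with a mean-variance trend. The test was two-sided, p-values were adjusted by Benjamini-Hochberg over all 617 genes, and the threshold was 0.05. Genes needed a mean value of 0.1 or more. The filter removed 0 genes, and the lowest mean was 8.54. The fit was tested on simulated data. Exons were compared in the GENCODE annotation of GRCm38, and blastn 2.17.0 was used to find transcript stretches shared with other genes over 100 bases or more at 95% identity. Other calculations used Python 3.11.15, numpy 2.4.6, pandas 2.3.3 and matplotlib 3.10.9.

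Named genes were all rows beginning with Kcn, listed members of the lists of channels, regulators, receptors and cell type markers, the most similar gene to each, and Nppa and Nppb. Trp53rkb, a kinase gene that begins with the letters of a channel family, was left out of the channel list. Another gene of that list is not reported here. The members and lists were chosen with earlier results of these data known, and the motifs after the values were seen.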

Additional observations from a re-analysis of the deposited data

How the results depend on the processing

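Each of the 7 potassium channel genes kept its direction under every alternative run, and 82 of 83 log2 fold changes kept their side of the threshold. The exception was Kcnj5 under median-ratio scaling. That scaling shifts PAB by less than the change of any of the 7 genes, so it could not turn a direction. Nor could the other alternatives. The groups did not overlap in any of the 7 genes, so a left-out library or another pseudocount keeps the sign. The fit without trend, the replicate block and the filters leave each log2 fold change as it was. Keeping the direction is therefore no evidence for it. A minimum mean of 50 removed Kcnj4, so it has no value there. Leaving out each library in turn left 7 of 7 genes called and not overlapping, beside 589 to 614 of the 617 listed genes called and 599 to 615 not overlapping (the latter counted after the data were seen), so these counts say nothing particular about the 7 genes. The lack of overlap in the 7 genes had to remain, because their groups were already apart with all libraries. Among lists and directions counted after the data were seen, median-ratio scaling left 188 of 327 lower genes called, since it shifts PAB by 0.59 on the log2 scale. That shift cannot be told apart from the selection of the listed genes for a difference. A minimum mean of 50 removed Rgs7, Scn4a, Hcn4, Cacng6, Plppr1, Ap1s3 and Ryr3, so that 0 in place of 1 of the other channel genes were called higher and 6 in place of 9 lower. Among 365 log2 fold changes of other named genes, 6 lost their call, all under median-ratio scaling, and 0 reversed. The shift of that scaling was also too small to reverse any of these genes. Sham and PAB libraries share replicate numbers, but libraries of the same number deviated from their groups with correlations across genes of -0.20 to -0.05, and nothing in the labels pairs them. With the replicate block, 7 potassium channel genes and 616 listed genes were called. Count tests with edgeR and DESeq2 on recovered reads, planned as alternatives, were not run. Every listed value lay within 0.01 of a whole multiple of its library's step, but the low values of most libraries did not pass a separate check of recovered reads, so limma was kept. At the depth of these libraries the sham values of Kcnj4 rest on few steps between values.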
